A study of Mus musculus with 12 samples.

Results

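Pdk4 and 9 further genes that set how much pyruvate enters oxidation were followed in 12 kidney transcriptomes of mice fasted overnight. The 10 genes were taken by name from the 24532 in the deposited tables. They are the kinase genes Pdk1 to Pdk4, the phosphatase genes Pdp1 and Pdp2, Pdha1 and Pdhb for the subunits of the first enzyme of the pyruvate dehydrogenase complex, and Mpc1 and Mpc2 for the mitochondrial pyruvate carrier. All 10 passed the filter of at least 1 TPM (a level corrected for transcript length and scaled to the same total in each library) in at least 3 of the 12 libraries, as did 14488 genes in all.

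The libraries form 4 groups of 3. They are FXR KO mice given GW4064, FXR KO mice given vehicle, C57BL/6 wild-type (WT) mice given GW4064 and C57BL/6 WT mice given vehicle. The knockout carries the allele Nr1h4tm1Gonz, a targeted disruption of the gene of FXR (farnesoid X receptor, a nuclear receptor for bile acids) that is present in every tissue, and GW4064 is a synthetic agonist of that receptor. GW4064 was given for 6 h, and the labels give no time for vehicle. The labels give no age, sex or dose, and do not say whether knockout and WT mice were littermates, nor is it stated that each library came from its own animal, so the p-values rest on differences among libraries that could be technical. The knockout and WT mice also carry different strain labels, so effects of the allele and of strain cannot be told apart.

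The libraries held 2.86 to 4.27 gigabases of coverage, and correlations of log2 levels were 0.982 to 0.988 within groups and 0.970 to 0.987 between them. Nr1h4 measured 105 to 134 TPM in the 6 KO libraries and 189 to 267 TPM in the 6 WT libraries, with no overlap, and such a level cannot separate intact from truncated Nr1h4 RNA. The kidney label was matched by Kap, an androgen-regulated proximal tubule gene, at 47901 to 63992 TPM, and by Umod (uromodulin, of the thick ascending limb) at 3187 to 3766 TPM. Of the markers of neighbouring tissue, the adrenal steroid enzyme gene Cyp11b1 and the fast muscle myosin gene Myh4 were at 0 TPM in all 12 libraries, and the 8 skeletal muscle markers summed to at most 2.86 TPM.

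The pyruvate dehydrogenase complex turns pyruvate into acetyl-CoA inside mitochondria and so joins glycolysis to the tricarboxylic acid cycle. Its first enzyme is switched off when a PDK kinase phosphorylates the alpha subunit, encoded by Pdha1, and switched on again when a PDP phosphatase removes the phosphate. Fasting raises PDK4 in muscle, heart, liver and kidney, which spares pyruvate for glucose synthesis while fatty acids are burned, and PPAR-alpha, FOXO factors and the glucocorticoid receptor are known activators of its gene. The proximal tubule, the most abundant segment of the kidney cortex, makes glucose from lactate and relies on fatty acids for energy.

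Pdk4 (Entrez Gene 27273, chr6:5483351-5496278, minus strand, mm10) lay far above its WT level in the knockout, with and without agonist. Pdk4 measured 396, 560.3 and 408 TPM in the KO vehicle libraries, against 54.7, 66.8 and 83.6 TPM in the WT vehicle libraries. Under GW4064 it measured 586, 548 and 659 TPM in the KO libraries, against 76.2, 167 and 109 TPM in the WT libraries. The lowest KO library, at 396 TPM, was above the highest WT library, at 167 TPM. The log2 difference, KO minus WT on the log2(TPM + 0.5) scale, was 2.73 ± 0.24 (SE, n = 3 each) for the vehicle libraries and 2.41 ± 0.24 for the GW4064 libraries (limma adjusted p = 7.3e-05 and 4.8e-05). On that scale this is 6.62-fold and 5.32-fold. By size of the increase Pdk4 stood 2nd of the 14488 genes tested on vehicle and 14th under GW4064. In bulk kidney, more Pdk4 RNA per cell and more cells that hold Pdk4 RNA cannot be told apart.

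**Figure D1:**
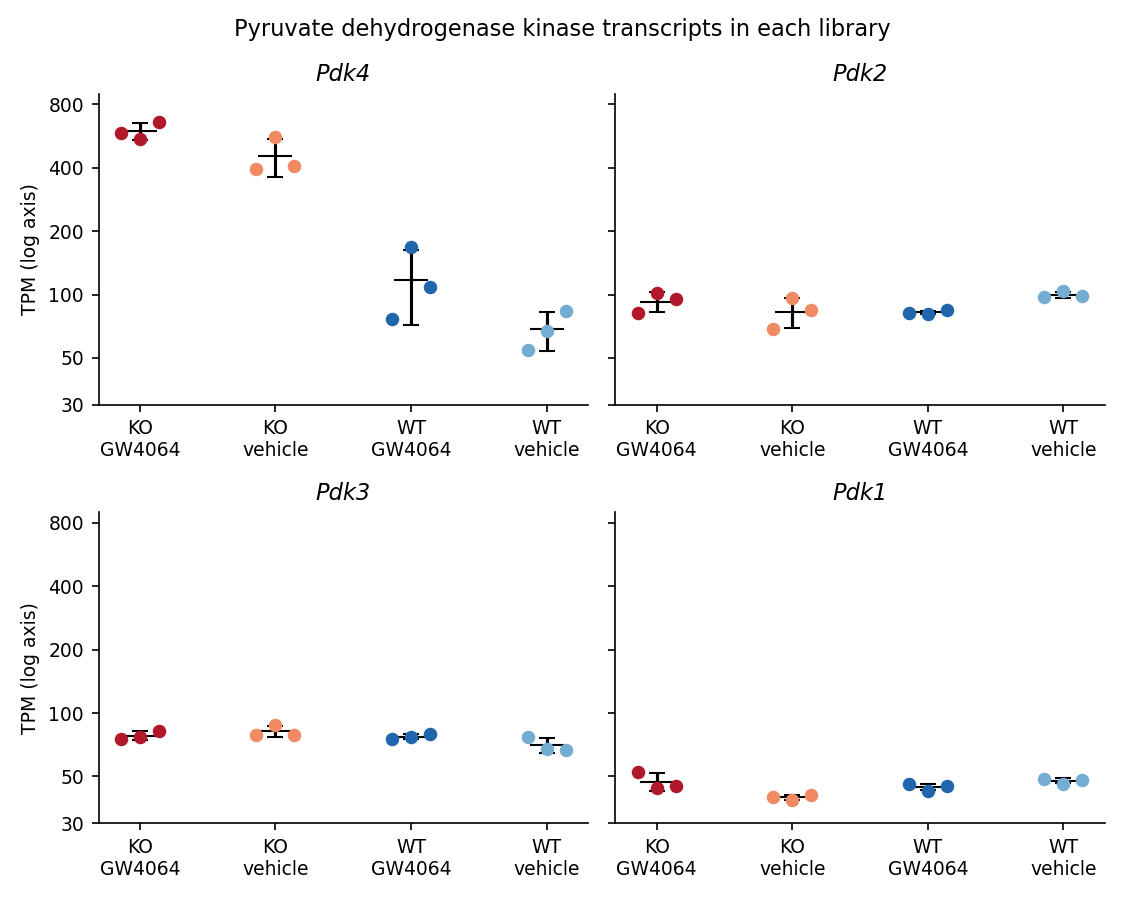
TPM (log axis) of Pdk4, Pdk2, Pdk3 and Pdk1 in each library (points) by group, with the mean and SD of the 3 libraries (bars). Pdk4 runs from 396 to 659 TPM in the KO groups and from 54.7 to 167 TPM in the WT groups, while each of the other kinase genes stays between 38.8 and 104 TPM.

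GW4064 left no called difference in Pdk4 in either genotype. In the KO, Pdk4 averaged 598 ± 56.4 TPM with GW4064 and 455 ± 91.8 TPM with vehicle (SD, n = 3 each), a log2 difference of 0.41 ± 0.24 with a 95% interval from -0.13 to 0.94 (limma adjusted p = 0.588). In the WT it averaged 117 ± 46.1 TPM with GW4064 and 68.3 ± 14.5 TPM with vehicle, a log2 difference of 0.72 ± 0.24 with an interval from 0.19 to 1.26 (limma adjusted p = 0.127). In both genotypes the GW4064 and vehicle libraries overlapped. Without WT GW4064 replicate 1, the lowest of its group, the WT difference became 1.00 (limma adjusted p = 0.0400). The KO response minus the WT response was -0.31 ± 0.35 (limma adjusted p = 0.669), with an interval from -1.07 to 0.44.

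Markers of other cell types moved with some of these libraries. A fat marker score, the mean log2(TPM + 0.5) of Adipoq, Plin1, Cfd and Cidec, was 2.49, 1.07 and 2.44 in KO GW4064, 1.83, 0.24 and 2.43 in KO vehicle, -0.26, 2.70 and 0.52 in WT GW4064 and 2.16, 1.99 and 2.30 in WT vehicle, for replicates 1 to 3. Among the WT GW4064 libraries Pdk4 was highest where the score was highest (167 TPM at 2.70) and lowest where it was lowest (76.2 TPM at -0.26). In KO vehicle the order was different, with the highest Pdk4 level (560.3 TPM) at the lowest score (0.24). All 11 fat cell markers summed to 305 to 407 TPM in KO GW4064, 291 to 326 TPM in KO vehicle, 222 to 319.9 TPM in WT GW4064 and 281 to 294 TPM in WT vehicle, with Lep (leptin) at 0 TPM in all but WT vehicle, where it reached 0.0470 TPM. Fabp4 alone measured 146 to 260 TPM over the 12 libraries. Of the 9 that were tested, none was called between genotypes on vehicle (median log2 difference -0.51, limma). Under GW4064 2 were higher in KO and none lower (median 0.61), where 7.08% of all genes were called higher. Lipe, outside that score and named after its values were seen, measured 33.6 to 38.8 TPM in KO and 15.6 to 27.0 TPM in WT. With that score added to the fit, an alternative chosen once values had been seen, Pdk4 still differed between KO and WT by 2.83 on vehicle and by 2.26 under GW4064 (limma adjusted p = 1.2e-04 and 2.1e-04), and its GW4064 difference in WT was 0.90 (limma adjusted p = 0.0964).

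**Figure D2:**
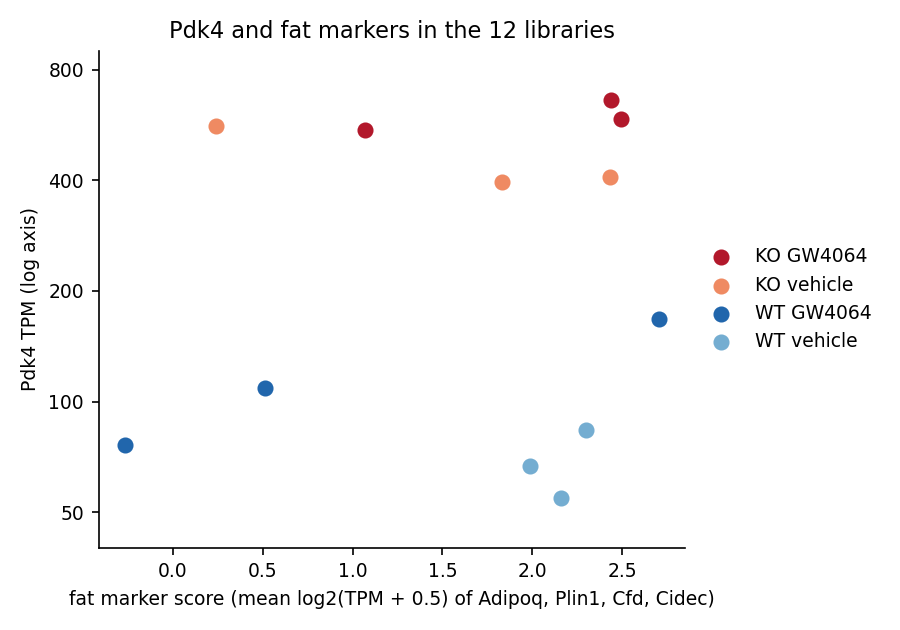
Pdk4 TPM (log axis) against the fat marker score of the same library, 1 point per library, coloured by group. The 6 KO libraries lie at 396 TPM or more across scores from 0.24 to 2.49, and the 6 WT libraries lie at 167 TPM or less across scores from -0.26 to 2.70.

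Markers of kidney cell types were read in the same way. Of all tested genes, 3.19% were called higher and 9.73% lower in KO on vehicle, and 7.08% and 11.4% under GW4064. Of the 10 proximal tubule markers, none was higher and 2 were lower in KO on vehicle (median log2 difference 0.0073, limma), and none was higher and 6 were lower under GW4064 (median -0.21). Their sum was 60629 to 66559 TPM in KO GW4064, 59609 to 71610.3 TPM in KO vehicle, 63889 to 69011 TPM in WT GW4064 and 55327 to 55966 TPM in WT vehicle, most of it Kap. The other 9 summed to 6270.1 to 6985 TPM in KO GW4064, 7060.4 to 7619 TPM in KO vehicle, 7785 to 7862 TPM in WT GW4064 and 7426 to 7608 TPM in WT vehicle. None of the 5 markers of the thick ascending limb or the 4 of the distal convoluted tubule was called between genotypes. Of them 2 and 1 had an unadjusted p under 0.05 on vehicle and 1 of each under GW4064 (limma). That p was reached by 30.5% of all genes on vehicle and by 4590 of 14488 under GW4064. All 4 podocyte markers were lower in KO on vehicle (median -0.39) and 2 were lower under GW4064 (median -0.21), against 9.73% and 11.4% of all genes. Of the 5 fibroblast and mural cell markers, 3 were lower in KO on vehicle and 2 under GW4064, and they summed to 128 to 234 TPM in KO GW4064, 151 to 177 TPM in KO vehicle, 236 to 273 TPM in WT GW4064 and 239 to 293 TPM in WT vehicle. Of the 9 collecting duct markers, 1 was higher and 3 were lower in KO on vehicle, and 1 was lower under GW4064. Of the 5 endothelium markers, 2 were lower on vehicle, and 1 was higher and 1 lower under GW4064. Of 4 tested immune cell markers, none was called on vehicle and 1 was lower under GW4064. None of 4 tested urothelium markers was called between genotypes. The part of these marker values in the Pdk4 difference was not tested.

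The promoters of the 4 kinase genes are shown because Pdk4 moved apart from its relatives, and this is the sequence just upstream of each start site. Each is the 250 bases before the start site in RefSeq for GRCm38.p6, 5′ to 3′ on the strand of the gene, with capitals marking CCAAT or its reverse complement. They lie at chr6:5496279-5496528 (Pdk4, minus strand), chr2:71872974-71873223 (Pdk1, plus strand), chr11:95041372-95041621 (Pdk2, minus strand) and chrX:93832151-93832400 (Pdk3, minus strand, 55 bases from the start in the deposited tables).
Pdk4: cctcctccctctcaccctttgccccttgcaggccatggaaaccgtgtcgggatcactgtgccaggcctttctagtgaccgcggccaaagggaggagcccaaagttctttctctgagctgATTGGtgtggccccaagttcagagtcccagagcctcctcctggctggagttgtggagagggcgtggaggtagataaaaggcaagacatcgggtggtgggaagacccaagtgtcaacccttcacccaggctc
Pdk1: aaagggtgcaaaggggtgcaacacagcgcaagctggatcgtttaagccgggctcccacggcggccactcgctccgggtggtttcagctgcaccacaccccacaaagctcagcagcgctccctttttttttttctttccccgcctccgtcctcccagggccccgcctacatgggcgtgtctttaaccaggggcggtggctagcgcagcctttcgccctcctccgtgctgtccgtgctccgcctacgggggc
Pdk2: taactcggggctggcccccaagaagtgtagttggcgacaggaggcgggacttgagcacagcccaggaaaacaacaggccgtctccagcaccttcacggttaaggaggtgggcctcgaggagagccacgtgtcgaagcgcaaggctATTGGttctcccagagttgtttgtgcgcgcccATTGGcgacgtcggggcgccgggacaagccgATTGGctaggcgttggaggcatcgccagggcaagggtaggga
Pdk3: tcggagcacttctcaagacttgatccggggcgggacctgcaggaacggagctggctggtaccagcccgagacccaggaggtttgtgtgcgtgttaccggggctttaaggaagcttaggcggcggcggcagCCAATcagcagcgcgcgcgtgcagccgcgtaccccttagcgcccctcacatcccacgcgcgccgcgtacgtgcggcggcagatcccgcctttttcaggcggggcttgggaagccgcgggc

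The Pdk4 promoter held 6 CpG dinucleotides, against 19 in Pdk1, 19 in Pdk2 and 29 in Pdk3. The median over 32851 mouse promoters of that length is 6. Fewer CpGs than in Pdk4 were found in 49.65% of them, and fewer than in Pdk1, Pdk2 and Pdk3 in 80.27%, 80.27% and 93.22%. The CCAAT box (CCAAT, either strand, found in 33.85% of all promoters) matched once in Pdk4, from 131 to 127 bases before the start on the reverse strand, 3 times in Pdk2, once in Pdk3 and nowhere in Pdk1. The other letters searched on both strands matched none of the 4 promoters. These were the FOXO core GTAAACA (3.166% of all promoters), the nuclear receptor half-site AGGTCA (14.024%), its direct repeat AGGTCANAGGTCA (0.033%) and inverted repeat AGGTCANTGACCT (0.006%), both of which contain the half-site, the glucocorticoid receptor half-site AGAACA (16.085%) and the TATA box TATAAA (12.368%). A sequence match describes these windows and no binding was measured.

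The other 3 kinase genes stayed within a narrow range. Pdk1 (Entrez Gene 228026, chr2:71873224-71903858), which encodes the kinase best known as a target of hypoxia signalling, was slightly lower in the knockout on vehicle. Pdk1 measured 39.9, 38.8 and 41.0 TPM in KO vehicle, against 48.6, 46.3 and 48.2 TPM in WT vehicle, with no overlap. Its log2 difference was -0.25 ± 0.06 (limma adjusted p = 0.0219), with the median of all genes at -0.087 in that comparison. The call ended when each of WT vehicle replicates 1 and 3 and KO vehicle replicates 1 and 2 was left out (adjusted p = 0.0579 to 0.0737, limma), and when levels were rescaled by median of ratios (-0.17, adjusted p = 0.0904) or quantiles (-0.19, adjusted p = 0.0831). Under GW4064 Pdk1 measured 52.4, 44.2 and 45.2 TPM in KO and 46.1, 42.9 and 44.9 TPM in WT, and the groups overlapped (0.08 ± 0.06, limma adjusted p = 0.432).

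Pdk2 (Entrez Gene 18604, chr11:95026258-95041371), the broadly expressed kinase gene, was the most abundant of the other 3. Pdk2 measured 68.6, 95.9 and 84.4 TPM in KO vehicle, against 97.0, 104 and 98.3 TPM in WT vehicle. Under GW4064 it measured 81.6, 101 and 94.9 TPM in KO, against 81.9, 80.6 and 84.1 TPM in WT. Each KO vehicle library was below each WT vehicle library, in a comparison where the median log2 difference of all genes was -0.087. The Pdk2 difference of -0.28 ± 0.11 did not pass the test (limma adjusted p = 0.104), but did so without KO vehicle replicate 2 (-0.39, limma adjusted p = 0.0377). GW4064 and vehicle libraries of the WT did not overlap either, at 80.6 to 84.1 TPM with GW4064 and 97.0 to 104 TPM with vehicle (-0.28 ± 0.11, limma adjusted p = 0.171). That value was called where only the WT groups entered the fit (limma adjusted p = 0.00957).

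Pdk3 (Entrez Gene 236900, chrX:93764616-93832095), a kinase gene known for its level in testis and brain, measured 78.7, 88.0 and 79.0 TPM in KO vehicle, against 77.4, 67.7 and 67.0 TPM in WT vehicle. The groups did not overlap and the log2 difference was 0.21 ± 0.06, which just missed the threshold (limma adjusted p = 0.0501). The 25 alternative settings gave 0.16 to 0.30 with adjusted p from 0.0220 to 0.162 (limma), and 7 of them called it. Under GW4064 Pdk3 lay at 75.0, 77.1 and 82.2 TPM in KO and 75.6, 76.9 and 79.5 TPM in WT, which overlapped.

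The order of the kinase genes by level thus differed between genotypes. In both KO groups Pdk4 was first by a wide gap, Pdk2 and Pdk3 overlapped with each other, and Pdk1 was lowest. In WT vehicle Pdk2 was first, Pdk3 and Pdk4 overlapped below it, and Pdk1 was lowest. In WT GW4064 Pdk4 spanned the levels of Pdk2 and Pdk3 upward, from 76.2 to 167 TPM, and Pdk1 was again lowest.

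Pdk4 made up 73.2 ± 1.88% of the summed kinase TPM in KO GW4064, 68.7 ± 2.57% in KO vehicle, 35.7 ± 9.20% in WT GW4064 and 23.8 ± 4.23% in WT vehicle (SD, n = 3 each). Its share was higher in the knockout by 44.9 percentage points on vehicle and 37.5 under GW4064, with no overlap. A two-sided exact permutation test gave p = 0.1 for each, the smallest it can give with 3 against 3 libraries, and p = 0.2 for each GW4064 comparison, and all 4 are 0.2 after Benjamini-Hochberg adjustment. The 4 kinase genes together summed to 816 ± 58.3 TPM in KO GW4064, 659 ± 108 TPM in KO vehicle, 322 ± 44.0 TPM in WT GW4064 and 286 ± 9.80 TPM in WT vehicle. Without Pdk4 the sums were 218 ± 7.77, 205 ± 17.8, 204 ± 4.11 and 218 ± 4.79 TPM in the same groups. Without Pdk4 the group means thus lay within 204 to 218 TPM.

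**Figure D3:**
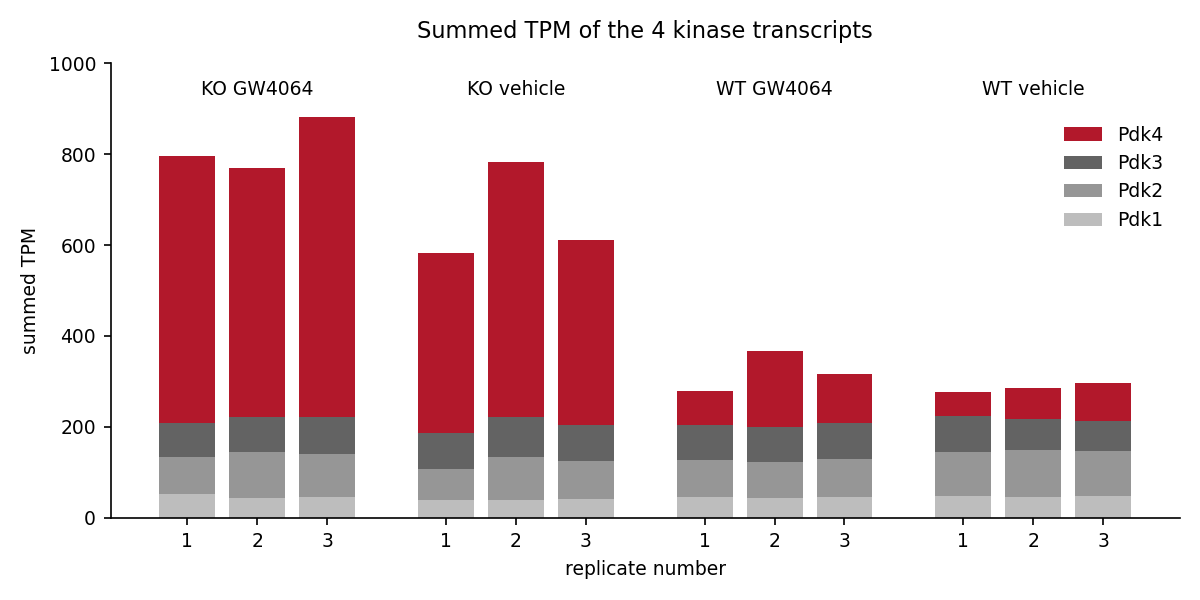
Summed TPM of Pdk1, Pdk2, Pdk3 and Pdk4 (stacked from bottom to top) in each of the 12 libraries, by group and replicate number. The grey part without Pdk4 lies between 187 and 223 TPM in every library, while the red Pdk4 part fills most of the bar in the 6 KO libraries.

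No difference in the phosphatase genes, which encode the enzymes that reverse the kinases, passed the test in any comparison. Pdp2 (Entrez Gene 382051, chr8:104591468-104596849) ranged from 34.2 to 51.6 TPM in KO GW4064, 46.9 to 55.9 TPM in KO vehicle, 43.3 to 46.7 TPM in WT GW4064 and 47.7 to 53.5 TPM in WT vehicle. Its KO minus WT difference was 0.06 ± 0.12 on vehicle, with a 95% interval from -0.21 to 0.32, and -0.08 ± 0.12 under GW4064 (limma adjusted p = 0.778 and 0.696). Pdp1 (Entrez Gene 381511, chr4:11958183-11966450) was the least abundant of the 10 genes, at 3.56 to 9.68 TPM over all libraries. With a standard error of 0.27, its differences between genotypes (-0.22 on vehicle and 0.20 under GW4064) were within the error. Summed kinase TPM was 16.6 ± 2.80 times the summed phosphatase TPM in KO GW4064, 11.2 ± 1.86 times in KO vehicle, 6.36 ± 1.02 times in WT GW4064 and 4.92 ± 0.391 times in WT vehicle. These are ratios of transcripts, and enzyme activity was not measured.

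Pdha1, the gene of the subunit that the kinases phosphorylate, had the smallest standard error of the 10 genes. Pdha1 (Entrez Gene 18597, chrX:160122219-160138430) measured 559 to 596 TPM over the 12 libraries, and its log2 difference between genotypes was 0.03 ± 0.03 on vehicle and -0.01 ± 0.03 under GW4064 (limma adjusted p = 0.538 and 0.934), with 95% intervals from -0.04 to 0.10 and from -0.08 to 0.06. Pdk4 averaged 1.04 ± 0.0989 times the Pdha1 level in KO GW4064, 0.783 ± 0.136 times in KO vehicle, 0.203 ± 0.0792 times in WT GW4064 and 0.121 ± 0.0251 times in WT vehicle. Pdhb (Entrez Gene 68263, chr14:8165991-8172992), the beta subunit gene, lay at 186 to 199 TPM in KO vehicle and 207 to 219 TPM in WT vehicle, which did not overlap. Its log2 difference of -0.12 ± 0.07 missed the threshold (limma adjusted p = 0.244), with the median of all genes at -0.087 in that comparison. Over the 25 alternatives the Pdhb difference was -0.14 to -0.03.

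Of the carrier genes, Mpc2 was called between genotypes under GW4064 and Mpc1 was not. MPC1 and MPC2 form the pair of proteins that carries pyruvate through the inner mitochondrial membrane. Mpc2 (Entrez Gene 70456, chr1:165461208-165481214) measured 538, 549 and 497 TPM in KO GW4064, against 615, 619 and 592 TPM in WT GW4064, and the groups did not overlap. The log2 difference was -0.21 ± 0.05 (limma adjusted p = 0.0104), and over the 25 alternatives the adjusted p ranged from 0.00850 to 0.0415. On vehicle Mpc2 measured 567, 571 and 555 TPM in KO, against 578, 523 and 554 TPM in WT, which overlapped (0.03 ± 0.05, limma adjusted p = 0.658). Mpc1 (Entrez Gene 55951, chr17:8283813-8297661) had the same direction under GW4064, at 606 to 616 TPM in KO and 647 to 673 TPM in WT without overlap, but its difference of -0.11 ± 0.05 did not pass the test (limma adjusted p = 0.165).

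Counted together, 2 of the 10 genes were called between genotypes on vehicle, Pdk4 higher and Pdk1 lower, where 12.9% of all tested genes were called, 3.19% higher and 9.73% lower. Under GW4064 the count was also 2, Pdk4 higher and Mpc2 lower, where 18.5% of all genes were called, 7.08% higher and 11.4% lower. Both counts are close to the background share. The other 9 genes had log2 differences between -0.28 and 0.21 on vehicle and between -0.21 and 0.20 under GW4064. None of the 10 was called for GW4064 in the WT, where 4.8% of all genes were called (2.48% higher and 2.32% lower), while 8 of them did not overlap between GW4064 and vehicle libraries, as did 26.8% of all genes, and 3 had an unadjusted p under 0.05, as did 19.3% of all genes (limma). None was called for GW4064 in the KO, where 0.0138% of all genes passed (2 genes, with 1560, or 10.8%, at an unadjusted p under 0.05, limma) and 2 of the 10 had an unadjusted p under 0.05. None was called for the difference between the genotypes' responses, where 3.19% were called, and 4 of the 10 had an unadjusted p under 0.05, as did 19% of all genes (limma). The comparisons share groups of libraries, so their counts are not independent.

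**Figure D4:**
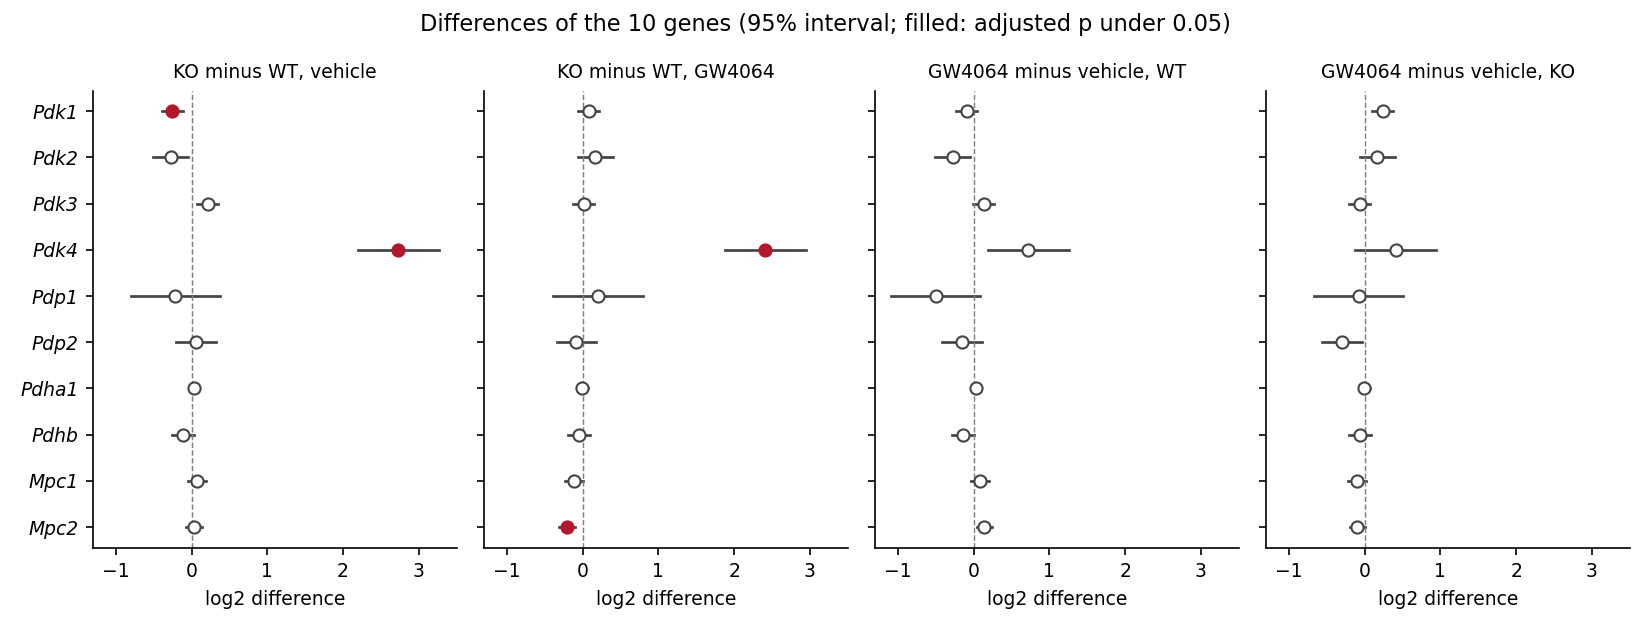
Log2 differences of the 10 genes in 4 comparisons (x axis, log2(TPM + 0.5) scale), with 95% intervals as lines and filled points where the adjusted p is under 0.05. Pdk4 sits at 2.73 and 2.41 in the KO minus WT panels, and the other 9 genes lie between -0.50 and 0.24 in all 4 panels.

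Other parts of the complex showed no call on vehicle. Of 10 tested genes for its remaining subunits, lipoate attachment and cofactor supply, none was called between KO and WT on vehicle, and 0 had an unadjusted p under 0.05, where 30.5% of all genes did (limma). Pdpr, the gene of the regulatory subunit of the phosphatase, differed there by 0.06 ± 0.05 (limma adjusted p = 0.420). Under GW4064 2 of the 10 were lower in KO and none higher, where 11.4% of all genes were called lower. With GW4064 in the WT 1 was higher, where 2.48% of all genes were. For the difference of responses 1 was called, where 3.19% of all genes were. Of 9 genes of the related keto acid dehydrogenases, 1 was higher and 1 lower in KO on vehicle, where 3.19% of all genes were called higher and 9.73% lower. Bckdha, a branched-chain subunit gene, was higher (0.18 ± 0.03) and Ppm1k, the phosphatase of that complex, was lower (-0.36 ± 0.08, limma adjusted p = 0.00795 and 0.0154). Under GW4064, where 7.08% were called higher and 11.4% lower, Bckdha was again higher in KO (0.16 ± 0.03). Dbt and Dhtkd1 were lower there (-0.31 ± 0.07 and -0.35 ± 0.11, limma adjusted p = 0.00735, 0.0127 and 0.0400 for the 3 genes).

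Genes that bring pyruvate and lactate to the switch included another large increase. Of 16 tested genes of pyruvate and lactate handling, 3 were higher and 1 lower in KO on vehicle, where 3.19% of all genes were called higher and 9.73% lower, and 2 were higher and 2 lower under GW4064, where 7.08% were called higher and 11.4% lower. Slc16a1, the monocarboxylate transporter MCT1, measured 111, 90.4 and 102 TPM in KO vehicle, against 22.2, 24.8 and 22.0 TPM in WT vehicle (log2 difference 2.11 ± 0.10, limma adjusted p = 4.9e-07). Under GW4064 it measured 180.2, 166 and 163 TPM in KO, against 22.5, 27.6 and 21.7 TPM in WT (2.81 ± 0.10, limma adjusted p = 1.2e-08). Slc16a1 was 1 of the 2 genes called for GW4064 in the KO (0.75 ± 0.10, limma adjusted p = 0.0492), and the KO response exceeded the WT response by 0.70 ± 0.14 (limma adjusted p = 0.0197). Slc5a8, a sodium-coupled lactate and pyruvate transporter, was lower in KO in both comparisons (-1.11 ± 0.05 on vehicle and -0.90 ± 0.05 under GW4064, limma adjusted p = 3.6e-07 and 5.4e-07). The other calls were Ldhd (0.33) and Pcx (0.27) higher on vehicle, Pklr (0.61) higher under GW4064 and Ldha (-0.18) lower under GW4064, with Pcx named after its value was seen.

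Calls among genes of glycolysis, gluconeogenesis and the tricarboxylic acid cycle differed in number and direction between comparisons. Of 17 tested glycolysis genes, 4 were lower and none higher in KO on vehicle, where 3.19% of all genes were called higher and 9.73% lower. The lowest p belonged to the phosphofructokinase genes Pfkm (-0.30 ± 0.05) and Pfkl (-0.25 ± 0.05, limma adjusted p = 0.00329 and 0.00607), and Eno1 and Aldoc, named after their values were seen, were the other 2. Under GW4064 the tally turned to 3 higher, Aldoa and Hk1 among them, and 1 lower, Pgk1, where 7.08% were called higher and 11.4% lower. With GW4064 in the WT 2 of the 17 were lower, where 2.32% of all genes were. They were Hk1 (-0.34 ± 0.06) and Aldoa (-0.16 ± 0.03, limma adjusted p = 0.00657 and 0.0208). For 5 of the 17 the KO response was called above the WT response, where 3.19% of all genes were called in either direction. Eno1 (0.40 ± 0.09) and Aldoa (0.20 ± 0.05) were among them (limma adjusted p = 0.0381 and 0.0417). Of 10 gluconeogenesis genes, G6pc, the glucose-6-phosphatase gene, was higher in KO on vehicle (0.76 ± 0.21, limma adjusted p = 0.0381). Under GW4064 3 of these genes were higher and 2 lower in KO. Pck1, the gene of phosphoenolpyruvate carboxykinase, was higher by 1.03 ± 0.19 (limma adjusted p = 0.00319). On vehicle Pck1 was not called between genotypes. It measured 5323, 8441 and 5835 TPM in KO vehicle and 7146, 8548 and 7411 TPM in WT vehicle, which overlapped. In the WT Pck1 was lower with GW4064 than with vehicle (-1.11 ± 0.19, limma adjusted p = 0.00665). The KO response of Pck1 was called above its WT response (limma adjusted p = 0.0264). Fbp2, a fructose bisphosphatase gene, was lower in KO under GW4064 by a log2 difference of -0.34. Fbp1 was lower as well (-0.13) and Got2 was higher (0.13), as was G6pc (0.72), named here after its value was seen. Of 14 genes of the tricarboxylic acid cycle, Cs was lower on vehicle (-0.17 ± 0.04) and Sdhd was lower under GW4064 (-0.16 ± 0.04, limma adjusted p = 0.0225 and 0.0121).

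Most genes listed here as PPAR targets were higher in the knockout, as Pdk4 was. PPAR-alpha is a fatty acid receptor known to act on Pdk4. The list was chosen with earlier results of these data known, so its counts describe the listed genes. Whether PPAR-alpha had a part in the Pdk4 difference was not tested. Of 23 tested PPAR targets, Pdk4 not counted, 18 were higher and none lower in KO on vehicle, where 3.19% of all genes were called higher, and the median log2 difference was 0.74 against -0.087 over all genes. Under GW4064 20 of the 23 were higher and none lower, where 7.08% of all genes were called higher, with a median of 0.88 against -0.030. The counts ranged from 14 to 19 and from 18 to 20 over the 25 alternatives. Acsl1, which activates fatty acids, was higher by 1.10 ± 0.08 and 1.25 ± 0.08 (limma adjusted p = 3.1e-05 and 3.0e-06), and Ehhadh, the peroxisomal bifunctional enzyme, by 1.20 ± 0.09 and 1.34 ± 0.09 (limma adjusted p = 3.5e-05 and 3.8e-06). Ehhadh measured 1906, 2259 and 2084 TPM in KO vehicle, against 879, 899 and 932 TPM in WT vehicle, with no overlap. Fabp1 (a fatty acid binding protein), Plin2 (a lipid droplet coat protein) and Cyp4a14 (a fatty acid hydroxylase) were higher by 2.51, 1.95 and 1.66 on vehicle and by 2.73, 2.23 and 2.73 under GW4064, and were named after their values were seen. Cyp4a and Acot genes have near-identical neighbours, so their reads may be split between copies.

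The members that were not called are named after their values were seen. On vehicle they were Acaa2, Acadl, Acadm, Hadha and Ucp2, of which the first 4 encode enzymes of mitochondrial beta-oxidation. Under GW4064 they were Acaa2, Acadm and the lipid droplet gene Plin5. For GW4064 itself, 2 of the 23 were higher in the WT, Plin5 (1.50 ± 0.15) and Angptl4 (0.44 ± 0.10, limma adjusted p = 2.1e-04 and 0.0353), where 2.48% of all genes were called higher, and none in the KO, where 9 of the 23 had an unadjusted p under 0.05, as did 10.8% of all genes (limma). In the KO Plin2 had 0.57 ± 0.16 (limma adjusted p = 0.246). The response of Plin5 to GW4064 differed between genotypes by -1.37 ± 0.22 (KO minus WT, limma adjusted p = 0.00682).

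**Figure D5:**
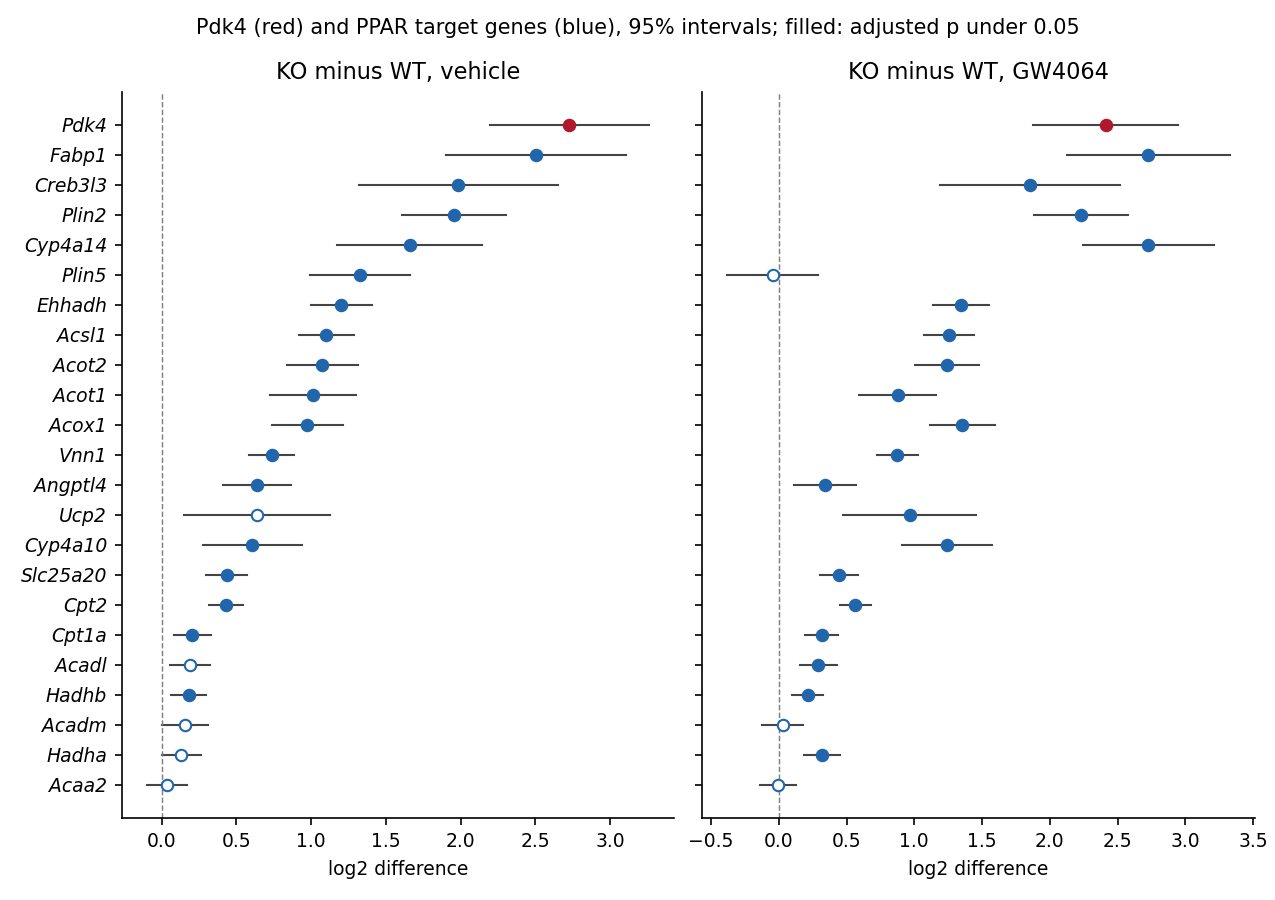
Log2 differences (x axis), KO minus WT, of Pdk4 (red) and the tested PPAR targets (blue, 1 not drawn) on vehicle (left) and under GW4064 (right), with 95% intervals and filled points where the adjusted p is under 0.05. Pdk4 leads the vehicle panel at 2.73, and 5 targets are open on vehicle and 3 under GW4064. The list of targets was chosen with earlier results of these data known.

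The transcript of Ppara itself did not show this difference on vehicle. Ppara measured 104, 129 and 109 TPM in KO vehicle, against 107, 118 and 113 TPM in WT vehicle, which overlapped (0.02 ± 0.08, limma adjusted p = 0.903). Under GW4064 it measured 96.5, 115 and 105 TPM in KO, against 82.7, 85.0 and 83.9 TPM in WT, with no overlap (0.32 ± 0.08, limma adjusted p = 0.0147). It was lower with GW4064 than with vehicle in the WT (-0.42 ± 0.08, limma adjusted p = 0.0104). Of the 20 nuclear receptors and other factors reported to act on Pdk genes, 1 was higher and 5 were lower in KO on vehicle, where 3.19% of all genes were called higher and 9.73% lower. Myc was higher (0.93 ± 0.19), while Esrrg (-0.35 ± 0.06), an estrogen-related receptor gene, and Klf15 (-0.49 ± 0.09), a fasting-responsive factor gene, were lower (limma adjusted p = 0.0113, 0.00384 and 0.00729). The other 3, Esrra, Hif1a and Ppargc1a, were named after their values were seen. Under GW4064, where 7.08% were called higher and 11.4% lower, 4 were higher and 6 lower, with Ppara and Myc (0.79 ± 0.19) among the higher and Klf15 (-0.69 ± 0.09) and Ppargc1a, a coactivator gene of PPAR-alpha (-0.31 ± 0.05), among the lower (limma adjusted p = 0.0150, 3.5e-04 and 6.9e-04). Ppargc1b (0.53) and Rxra (0.25), named after their values were seen, were the other two that were higher.

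Genes that answer to the other known activators of Pdk4 were counted in the same way. Of 23 genes responsive to FOXO factors, fasting or glucocorticoids, 2 were higher and 2 lower in KO on vehicle, close to the 12.9% of all genes called in either direction (3.19% higher and 9.73% lower). Cdkn1a (1.58 ± 0.15), a cell cycle inhibitor gene, and Sgk1 (1.61 ± 0.19), a kinase gene of sodium handling, were higher, and Bcl6 (-1.60 ± 0.29) and Sik1 (-0.62 ± 0.09) were lower (limma adjusted p = 9.3e-05, 4.4e-04, 0.00627 and 0.00168). Under GW4064, where 7.08% were called higher and 11.4% lower, 9 were higher and 1 lower, with Cdkn1a at 2.09 ± 0.15, the insulin receptor gene Insr at 0.25 ± 0.05 and Sik1 at -0.59 ± 0.09 (limma adjusted p = 3.8e-06, 0.00511 and 8.7e-04). The median log2 difference of the 23 was 0.050 on vehicle and 0.40 under GW4064, against -0.087 and -0.030 over all genes. Of 12 hypoxia targets, 2 were higher and 2 lower on vehicle, against 3.19% and 9.73% of all genes, with Ndrg1 at 0.92 ± 0.12 and Car9, carbonic anhydrase 9, at -1.11 ± 0.14 (limma adjusted p = 8.9e-04 and 6.6e-04), and with Adm (0.69) and Higd1a (-0.26). Under GW4064 3 of the 12 were higher and 2 lower, against 7.08% and 11.4% of all genes, with the same 2 genes at 1.96 ± 0.12 and -1.58 ± 0.14 (limma adjusted p = 1.4e-06 and 1.5e-05), and with Adm (1.06) and Ankrd37 (-0.86). Bnip3 (0.22) was the other one higher, and was named after its value was seen.

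The genes whose levels ran most like those of Pdk4 were sought among 10970 genes with a mean of at least 5 TPM, by Pearson correlation of log2 levels over the 12 libraries. These correlations describe libraries that share genotype, and no test is attached. The 5 highest were Slc25a30, a mitochondrial carrier gene (0.99), Ehhadh (0.98), Acot1 (0.98) and Acot2 (0.98), thioesterase genes of fatty acyl-CoA, and Hsdl2, a peroxisomal gene (0.98). Slc25a30 averaged 352, 329, 202 and 156 TPM in KO GW4064, KO vehicle, WT GW4064 and WT vehicle. The 5 lowest were Tln2 (-0.98), Akr1c21 (-0.97), Gria3 (-0.97), Lta4h (-0.96) and Usf3 (-0.96). When each group's mean was taken away first, so that only the spread among libraries of a group remained, the 5 highest were Angptl4, an inhibitor of lipoprotein lipase (0.95), Cyp4a31 (0.93), Psmd11 (0.92), Casp8 (0.91) and Hdac5 (0.91). With 10970 genes searched over only 12 libraries, values this high can arise by chance at the top of the list. They cannot show that these 5 genes follow Pdk4. Among the other 9 genes of the switch the correlation with Pdk4 was strongest for Pdk3 (0.60) and Pdhb (-0.52), and for each of the other 7 it lay between -0.42 and 0.39.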

How the data were processed

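Total RNA from mouse kidney was sequenced in 12 libraries with a stranded kit, per the labels' protocols, and samples were grouped by their labels. The submitters' processing notes list the tools HISAT2, StringTie and Cufflinks and the build mm10. Their roles, their versions, the annotation and the use of strand in counting are not stated there. The authors deposited 1 table per library with TPM, FPKM and coverage per gene. The deposited TPM values were tested. The deposited FPKM values served as an alternative, and the deposited coverage signal gave the depth, 2.86 to 4.27 gigabases per library, which sets the counting error. Pdp1 was the most thinly covered of the 10 genes, at 5.52 to 13.7 reads per base, and Pdk4 had 62.6 to 931. No read counts were used here, so no count test was run.

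Entries of 1 Entrez identifier were summed (113 to 142 identifiers per library had several), and RefSeq's gene table for GRCm38.p6 gave symbols to 24462 of 24532. Genes reaching 1 TPM in 3 or more libraries were kept. Values were transformed as log2(TPM + 0.5), which understates changes of low genes, and fitted with limma 3.58.1 in R 4.3.3 (1 mean per group over 12 libraries, moderated variances with a trend). Benjamini-Hochberg adjustment ran over all 14488 genes of a comparison, with calls under 0.05. The kinase share was compared with exact permutation tests (scipy 1.17.1). Errors beside TPM are SD and beside log2 differences SE. The fit was tested on simulated data.

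The 10 genes, the pathway and marker lists and the naming rule were chosen with earlier results of these data known. The rule names all 10 genes, Nr1h4, from each list and comparison up to 2 called members of lowest p in each direction (or the 2 of lowest p where none is called), and the genes most and least correlated with Pdk4. Results of some list members that the rule names are not reported here, although the counts include them. Promoters came from a RefSeq table of GRCm38.p6, which matched 9 of the 10 genes, all but Pdp1. Alternatives were other pseudocounts, filters, scalings, FPKM, no variance trend, weighted libraries, fits of only the compared groups, a replicate block and each library left out, and, chosen after seeing the data, a fat marker covariate and protein-coding genes only.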

Additional observations from a re-analysis of the deposited data

Results flagged for a closer look

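For Pdk1 and Mpc2 the GW4064 and vehicle libraries did not overlap in either genotype and lay in opposite order in the 2 genotypes, as they did for 2.81% of all genes tested. None of the 4 GW4064 differences passed the test. Pdk1 averaged 47.3 ± 4.46 TPM with GW4064 and 39.9 ± 1.09 TPM with vehicle in the KO (SD, n = 3 each), and 44.6 ± 1.64 TPM with GW4064 and 47.7 ± 1.24 TPM with vehicle in the WT. The log2 differences were 0.24 ± 0.06 in the KO and -0.09 ± 0.06 in the WT (limma adjusted p = 0.230 and 0.446), and in the WT the gap between the groups was narrow, with the highest GW4064 library at 46.1 TPM and the lowest vehicle library at 46.3 TPM. The KO response minus the WT response of Pdk1 was 0.33 ± 0.09 on the log2 scale and did not pass the test (limma adjusted p = 0.0667). Mpc2 averaged 528 ± 27.5 TPM with GW4064 and 564 ± 8.67 TPM with vehicle in the KO, and 609 ± 14.7 TPM with GW4064 and 552 ± 27.4 TPM with vehicle in the WT. The log2 differences were -0.10 ± 0.05 in the KO and 0.14 ± 0.05 in the WT (limma adjusted p = 0.492 and 0.117). Its difference of responses was -0.24 ± 0.07 and did not pass the test either (limma adjusted p = 0.0764). Of all genes tested, 3.19% were called for that difference.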

How the results depend on the processing

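Of 1240 differences of the 10 genes under 25 alternatives (24 for the difference of responses), 1202 kept direction and side of the threshold, 6 lost a call, 14 gained one and 18 changed sign. Pdk4 kept its call between genotypes in all, at 2.57 to 2.88 on vehicle (limma adjusted p = 2.3e-05 to 6.0e-04) and 2.14 to 2.70 under GW4064 (2.1e-05 to 0.00114). Its share of kinase TPM was read under 14 alternatives only, and differed by 42.9 to 47.1 and 33.3 to 42.4 percentage points. They were FPKM, which leaves a share within a library unchanged, a sum without Pdk1, and each library left out. With 1 library left out, its GW4064 difference in WT was 0.43 to 1.00 (limma adjusted p = 0.0400 to 0.341).

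The number of the 10 genes called for the difference of responses was 1 with median-of-ratios scaling (Mpc2, limma adjusted p = 0.0339) and 1 with the replicate block (Pdk1, limma adjusted p = 0.0470), against 0, and 0 to 1 with 1 library left out. For GW4064 in WT it was 1 with only the groups compared, and 0 to 1 with 1 library left out. Between genotypes on vehicle it was 1 to 3 over the 25 alternatives and 1 to 2 with 1 library left out. It was 1 without WT vehicle replicate 3 or KO vehicle replicate 1.

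All reversed values were uncalled. The largest were 0.181 and -0.119, both of Pdp1, and those of the other genes were at most 0.0683 in size. Pdha1 became 0.0278 (median of ratios), 0.00030 (quantiles) and 0.00284 (fat covariate) for KO against WT under GW4064, -0.00299 (quantiles) for GW4064 in WT and 0.00301 (sample weights) for GW4064 in KO. With 1 library left out, signs changed within -0.00327 to 0.0683 for Mpc2 on vehicle; -0.0232 to 0.0426 (Pdk3), -0.119 to 0.465 (Pdp1), -0.225 to 0.0683 (Pdp2), -0.0124 to 0.00305 (Pdha1) and -0.136 to 0.0147 (Pdhb) for KO against WT under GW4064; -0.0304 to 0.0151 (Pdha1) and -0.322 to 0.181 (Pdp1) for GW4064 in KO; and -0.283 to 0.0108 (Pdp2) and -0.0169 to 0.134 (Pdhb) for the difference of responses. The cause was not tested.

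Libraries with the same replicate number did not deviate together over genes, at correlations of -0.0748 to 0.0606, against up to 0.126 for other numbers. These correlations cannot show whether libraries shared a day or batch, which the labels do not give. The block therefore served only as an alternative. Over all genes, calls for GW4064 in WT ranged from 334 to 938 (696 as reported), in KO from 0 to 51 (2), between genotypes on vehicle from 926 to 1975 (1872) and under GW4064 from 1726 to 2808 (2677), and for the difference of responses from 207 to 535 (462). A leave-one-out fit assumes the spread of the other groups. Among the 10 genes Pdp1 had the thinnest coverage and the largest standard error between groups (0.27). Pdk4 came next at 0.24 with deeper coverage, and the part of depth in these errors was not tested.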

Other observations

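The neighbours of Pdk4 on chromosome 6 were read after their values were seen. Pon2, a paraoxonase gene at chr6:5264624-5298373, measured 47.9, 56.5 and 47.4 TPM in KO vehicle, against 43.6, 36.4 and 42.0 TPM in WT vehicle, and was higher in KO by 0.31 ± 0.08 on vehicle and 0.34 ± 0.08 under GW4064 (limma adjusted p = 0.0281 and 0.0128). Pon3, beside it, showed 0.11 ± 0.08 and 0.09 ± 0.08 (limma adjusted p = 0.365 and 0.510). Slc25a13, the mitochondrial aspartate and glutamate carrier gene on the other side of Pdk4, was at 0.02 ± 0.05 on vehicle (limma adjusted p = 0.824). Under GW4064 Slc25a13 measured 139, 150.3 and 134 TPM in KO, against 188, 179.7 and 189 TPM in WT (-0.40 ± 0.05, limma adjusted p = 3.2e-04). It was higher with GW4064 in the WT by 0.29 ± 0.05 (limma adjusted p = 0.00925), and its response differed between genotypes by -0.42 ± 0.07 (limma adjusted p = 0.0130). Asb4 and Dync1i1, the nearest genes to Pdk4 on either side, did not pass the filter on low values.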
